A study of Rattus norvegicus with 18 samples.

Results

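The genes described here are 10 genes of the integrated stress response, chosen by symbol from the 32545 genes of the deposited table: Atf4, Atf3, Ddit3, Trib3, Chac1, Ppp1r15a, Asns, Psat1, Slc7a5 and Slc3a2. Each symbol matched 1 gene, and all 10 were among the 11917 genes with at least 1 FPKM in at least 3 libraries. They were followed across 18 libraries in 6 groups of 3, all made from H9C2, an established rat line of embryonic heart origin. P cells were kept for 48 h in PE, an agent that the labels do not spell out, at 50 µmol/L. P-ES10 and P-ES50 cells had the same PE and were then given 10 or 50 electric pulses of 100 µs at 1500 V/cm. ES10 and ES50 cells had the 10 or 50 pulses without PE, and NC cells had no treatment. The study asked how such pulses act on heart muscle cells and their mitochondria. All groups are the same line, and the labels number the replicates without saying whether they are separate cultures. The p-values therefore cover only the variation among these libraries, and that may be technical.

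In the integrated stress response, kinases that sense amino acid shortage, endoplasmic reticulum (ER) stress, heme shortage or double-stranded RNA phosphorylate the translation factor eIF2. General translation slows, while the mRNA of the transcription factor ATF4 is translated better. ATF4 then switches on genes for amino acid uptake and synthesis, for further transcription factors such as ATF3 and CHOP (the product of Ddit3), and for GADD34 (the product of Ppp1r15a), which brings a phosphatase back to eIF2 and ends the response. Since ATF4 is set largely by translation and protein turnover, its mRNA is only part of its activity.

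Levels are FPKM as deposited, that is, fragments scaled to gene length and to a library term, and on this scale the median gene is about equal between libraries. The share of reads on mitochondrial genes was 5.41 to 5.60% in P, 6.05 to 6.79% in P-ES10, 46.7 to 49.6% in P-ES50, 11.6 to 14.0% in NC, 9.25 to 9.80% in ES10 and 91.4 to 92.9% in ES50. Reads on nuclear genes numbered 1230554 to 1466851 in the ES50 libraries and 7813779 to 14665855 in the other 15. Scaling to total reads instead multiplies all FPKM of a library by 1 factor, which is lower in ES50 and P-ES50. Counts of the 10 genes are therefore given on both scales for 50 pulses. Levels, their order between groups and results with no scale named are on the deposited scale. Fold changes are of log2(FPKM + 1), and with this addition of 1 a rescaling moves low genes less than high ones, so the genes do not shift by a common amount. Of the 10 cardiomyocyte markers, 3 averaged at least 1 FPKM in NC, led by Tnnt2 at 11.3, 12.2 and 12.7, while Myh6 was at no more than 0.0219, so the labelled myocardial identity rests on few of them. Summed fibroblast markers were at 547 to 574 FPKM in ES50 and 2378 to 2464 in NC. Summed skeletal myoblast markers were at 65.4 to 66.8 FPKM in P-ES10 and 30.3 to 34.9 in P, and at 67.9 to 71.7 in ES10 and 41.4 to 43.4 in NC. In each of these groups 2 of the 6 averaged at least 1 FPKM. Summed cardiomyocyte markers were at 47.6 to 56.7 FPKM in ES50 and 15.3 to 17.4 in NC. The ES50 sum rests on few genes, since 2 of the 10 averaged at least 1 FPKM there and 5 were at 0 in all libraries. Summed smooth muscle markers were at 5460 to 5682 in ES50 and 2163 to 2355 in NC. The 3 endothelial and 4 leukocyte markers found were all at 0 in ES50, the group with the fewest nuclear reads, and each list summed to at most 3.80 FPKM elsewhere. The part of these shifts in the results was not tested. All groups are the same line, so these lists describe expression and do not count cell types. In bulk RNA, fewer cells and less RNA per cell cannot be told apart.

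Atf4 (ENSRNOG00000017801, Rnor 6.0 chr7:121480723-121482781, plus strand) was the highest of the 10 genes in every group. Its level was 267, 246 and 263 FPKM in P, 419, 389 and 405 in P-ES10, and 367, 354 and 346 in P-ES50. Without PE it was 349, 337 and 342 FPKM in NC, 426, 435 and 420 in ES10, and 195, 246 and 232 in ES50. By group mean the order ran ES10, P-ES10, P-ES50, NC, P and ES50, and the neighbours P-ES50 and NC overlapped. The ES10 libraries were the highest, and the ES50 libraries the lowest, with their top library level with the bottom P library. Atf3 (ENSRNOG00000003745, chr13:109817728-109849632, minus strand), a stress-induced relative of ATF4, was the lowest of the 10 in every group, at 3.88 ± 0.389 FPKM in P, 7.99 ± 0.801 in P-ES10, 6.92 ± 0.187 in P-ES50, 5.48 ± 0.329 in NC, 7.15 ± 0.369 in ES10 and 1.96 ± 1.09 in ES50 (SD, n = 3 each). The 3 ES50 values of Atf3 rest on 8, 11 and 22 reads.

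Ddit3 (ENSRNOG00000006789, chr7:70580198-70585084, plus strand) encodes CHOP, a factor tied to cell death under lasting stress. It stood at 31.9, 32.2 and 32.9 FPKM in P, 37.6, 39.2 and 42.9 in P-ES10, 48.5, 52.9 and 57.4 in P-ES50, 45.6, 44.2 and 45.6 in NC, 40.0, 42.8 and 43.5 in ES10, and 22.4, 49.3 and 35.4 in ES50. With PE its deposited level was higher the more pulses were given. In limma's model of all libraries, however, neither P-ES10 against P (adjusted p = 0.271) nor P-ES50 against P-ES10 (0.123) passed. Without the 3 ES50 libraries in the fit each passed, at 0.0014 and 1.37e-04, as with only the groups compared, at 0.0051 and 0.00847. On total reads P-ES50 was below P and P-ES10, at -0.19 against P and -0.39 against P-ES10, and neither change passed. Without PE the ES50 libraries spread on both sides of NC. Trib3 (ENSRNOG00000007319, chr3:147813473-147819571, minus strand), a pseudokinase that acts back on ATF4, showed a step at 50 pulses with PE: 14.6, 15.5 and 12.5 FPKM in P, 17.1, 16.9 and 16.9 in P-ES10, and 30.6, 31.0 and 28.6 in P-ES50. Without PE Trib3 averaged 25.8 ± 1.39 FPKM in NC, 25.5 ± 0.363 in ES10 and 14.8 ± 1.84 in ES50 (SD, n = 3 each).

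Chac1 (ENSRNOG00000014387, chr3:111160205-111163425, plus strand) encodes an enzyme that breaks down glutathione. Its level was 9.89, 10.3 and 10.2 FPKM in P, 22.4, 23.9 and 24.8 in P-ES10, and 24.9, 25.7 and 23.6 in P-ES50, so both pulse numbers lay far above P and overlapped each other. Without PE it was 15.6, 16.9 and 18.3 in NC, 23.7, 25.6 and 24.8 in ES10, and 12.6, 13.1 and 16.8 in ES50. Ppp1r15a (ENSRNOG00000020938, chr1:101511901-101514974, minus strand), the gene of GADD34, was at 43.7, 45.7 and 44.4 FPKM in P, 121.5, 115 and 119 in P-ES10, and 68.1, 73.7 and 69.5 in P-ES50. Here 10 pulses stood above 50 pulses, and the same held without PE, at 61.6, 59.7 and 61.8 in NC, 97.4, 102 and 94.2 in ES10, and 27.7, 35.9 and 41.9 in ES50.

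The 4 genes of amino acid supply follow, with Asns and both transporter chains highest in P-ES50 and Psat1 highest in ES10 on the deposited scale. Asns (ENSRNOG00000007546, chr4:33743364-33761163, minus strand), asparagine synthetase, averaged 13.0 ± 0.642 FPKM in P, 13.2 ± 0.606 in P-ES10, 18.4 ± 1.88 in P-ES50, 17.0 ± 0.883 in NC, 16.0 ± 0.583 in ES10 and 16.4 ± 3.25 in ES50 (SD, n = 3 each). Psat1 (ENSRNOG00000013971, chr1:233124092-233145941, minus strand), of serine synthesis, averaged 41.8 ± 0.966 FPKM in P, 44.9 ± 0.623 in P-ES10, 55.0 ± 2.47 in P-ES50, 54.6 ± 1.58 in NC, 60.6 ± 1.58 in ES10 and 32.9 ± 1.12 in ES50. Slc7a5 (ENSRNOG00000018824, chr19:54693959-54722563, minus strand) is the light chain, and Slc3a2 (ENSRNOG00000018487, chr1:224906554-224921092, minus strand) the heavy chain, of the large neutral amino acid transporter. Slc7a5 was at 73.0, 69.5 and 66.1 FPKM in P, 66.7, 67.4 and 65.0 in P-ES10, and 94.98, 91.6 and 88.8 in P-ES50. It was at 84.4, 82.6 and 78.3 in NC, 77.6, 82.3 and 73.9 in ES10, and only 12.5, 14.1 and 13.9 in ES50. Slc3a2 averaged 146 ± 5.44 FPKM in P, 168 ± 3.69 in P-ES10, 204 ± 9.47 in P-ES50, 166 ± 3.77 in NC, 179 ± 5.43 in ES10 and 46.1 ± 1.76 in ES50. On the deposited scale P-ES50 was the highest group for both transporter chains and ES50 the lowest. On total reads P-ES50 was below P for Slc7a5 (log2 fold change -0.495), Slc3a2 (-0.418) and Asns (-0.385).

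**Figure D1:**
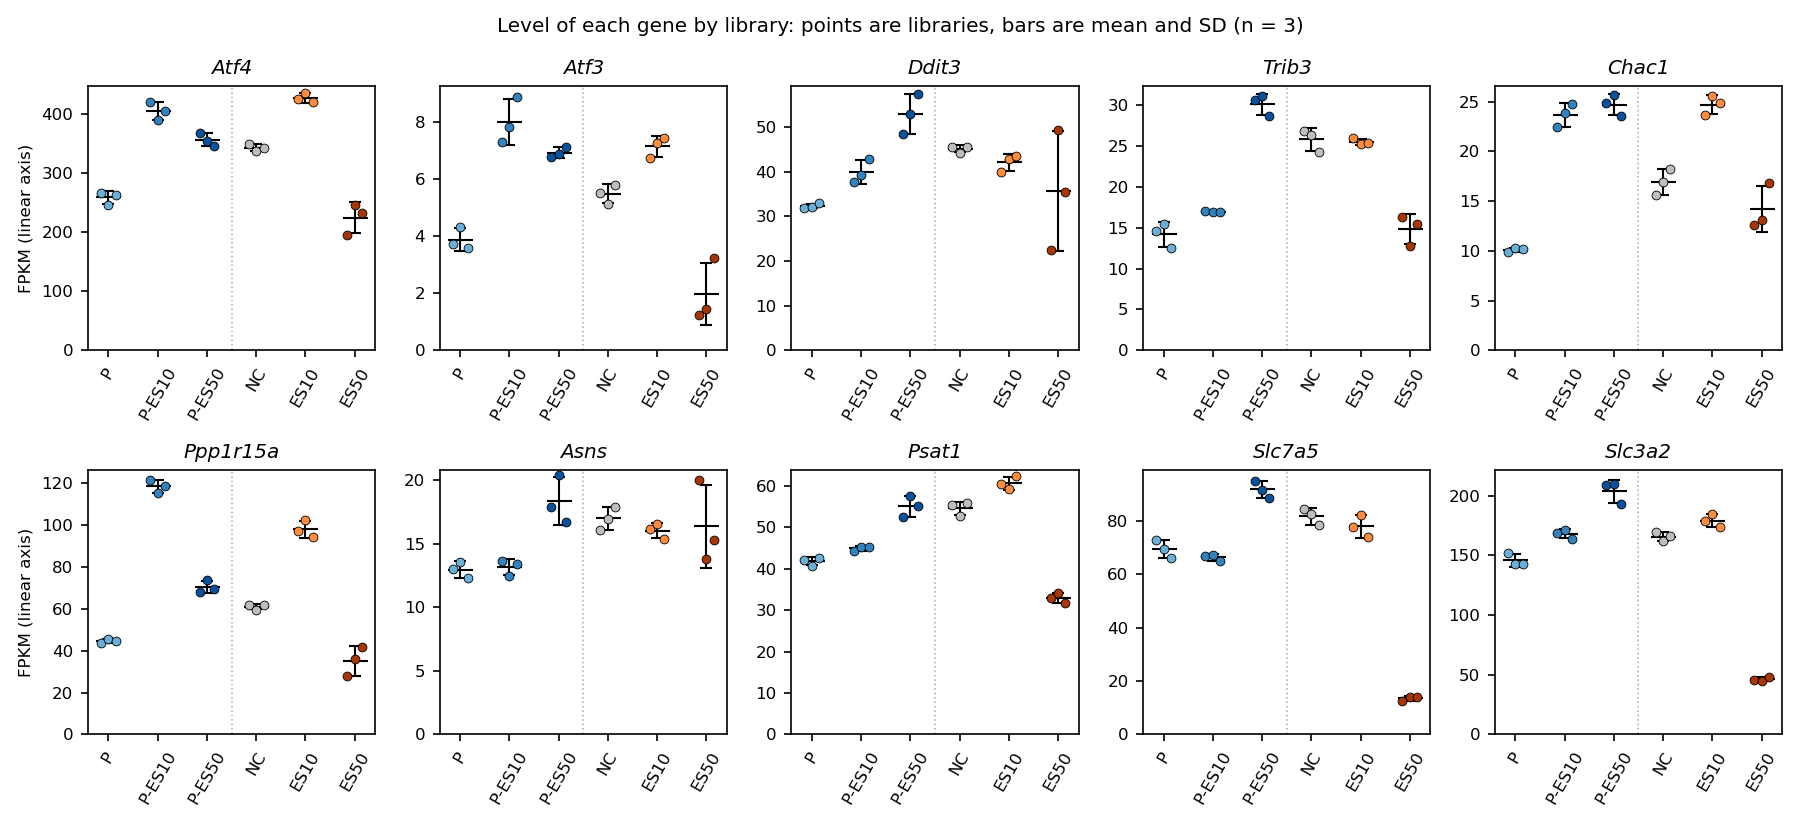
FPKM of the 10 genes (vertical axes, linear, each from 0) in the 6 groups, PE-treated groups left of the dotted line; points are libraries, bars the mean and SD (n = 3). Ppp1r15a peaks at 115 to 121.5 FPKM in P-ES10, Trib3 at 28.6 to 31.0 in P-ES50, and Slc7a5 lies at 12.5 to 14.1 in ES50.

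Sequences before the transcription start were available in RefSeq (build GRCr8, another build than that of the deposited positions) for 9 of the 10 genes, all but Atf3, with 10 windows of 250 bases before to 50 after the start. Both strands were searched for the core of the C/EBP-ATF response element through which ATF4 dimers act, TGATGNAA, in which N is any base, for its narrower form TGATGCAA, and for the cAMP response element TGACGTCA. The wide core was in the windows of 2 genes, Trib3 and Chac1, the narrow core in Chac1 alone, and the cAMP element in Ppp1r15a alone, while 3.98% of all 33469 windows held the wide core, 0.795% the narrow core and 1.83% the cAMP element. The stretch around each match is shown, in the gene's 5′ to 3′ direction with the match in capitals. The Chac1 stretch is at GRCr8 chr3:126795938-126795997 (plus strand), with the match starting 167 bases before the start. The Trib3 stretch is at chr3:161275534-161275580 (minus strand), with the match starting 21 bases before the start. The Ppp1r15a stretch is at chr1:105139629-105139688 (minus strand), with the match starting 66 bases before the start. In Chac1 and Trib3 the capitals are the core read on the opposite strand. A match describes the letters only, and elements outside the window were not searched.
Chac1: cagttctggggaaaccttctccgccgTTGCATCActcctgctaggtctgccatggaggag
Trib3: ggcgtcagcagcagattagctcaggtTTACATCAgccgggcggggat
Ppp1r15a: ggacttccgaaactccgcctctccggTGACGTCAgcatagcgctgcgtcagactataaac

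With PE, Ppp1r15a, Chac1, Atf3 and Atf4 were the genes most raised after 10 pulses, while 3 of the 4 amino acid genes did not pass the test. In P-ES10 against P, 6 of the 10 genes rose and 0 fell, where 13.2% of all tested genes rose and 9.66% fell (limma on log2 of FPKM plus 1, Benjamini-Hochberg adjusted p under 0.05). The libraries of P-ES10 and P did not overlap for 8 of the 10, as for 52.8% of all genes. The median log2 fold change of the 10 was 0.27, against 0.00 for all tested genes. Ppp1r15a rose by 1.39 ± 0.10 (SE, adjusted p = 8.22e-08) and Chac1 by 1.15 ± 0.09 (adjusted p = 1.74e-07). Atf3 rose by 0.88 ± 0.17 (adjusted p = 0.00142) and Atf4 by 0.64 ± 0.06 (adjusted p = 3.36e-06). Trib3 and Slc3a2 rose by less, 0.24 ± 0.08 and 0.20 ± 0.04. Ddit3 differed by 0.29 ± 0.18 (adjusted p = 0.271), Psat1 by 0.10 ± 0.04 (0.106), Asns by 0.02 ± 0.10 (0.921) and Slc7a5 by -0.07 ± 0.05 (0.438). On total reads 4 rose and 0 fell, where 12.8% of all genes rose and 24.1% fell, and Trib3 (0.16, adjusted p = 0.0742) and Slc3a2 (0.11, 0.142) lost the call. Trib3 also lost it without P replicate 1 or 3 or without any P-ES10 replicate, at adjusted p of 0.0717 to 0.2. Without the 3 ES50 libraries in the fit 8 rose, Ddit3 and Psat1 included. Calls grew over all 11917 tested genes too, with 2498 higher and 2218 lower, against 1573 and 1151 with ES50 in the fit.

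Without PE, Ppp1r15a and Chac1 were again the genes most raised after 10 pulses. In ES10 against NC, 4 of 10 rose and 0 fell, where 6.36% of all tested genes rose and 2.21% fell, and the median of the 10 was 0.13 against 0.02 for all genes. Ppp1r15a rose by 0.67 ± 0.10 (adjusted p = 3.87e-04), Chac1 by 0.52 ± 0.09 (0.00118), Atf4 by 0.32 ± 0.06 (0.00529) and Psat1 by 0.15 ± 0.04 (0.0372). The groups did not overlap for 7 of the 10, as for 39.7% of all genes. Atf3 was among these, at 0.33 ± 0.17 (0.302). Ddit3, Trib3, Asns and Slc7a5 lay between -0.10 and -0.02, with adjusted p of 0.552 to 0.958, and Slc3a2 at 0.11 ± 0.04 (0.135). Psat1 lost its call without any of the 6 libraries, at adjusted p of 0.0623 to 0.163, and on total reads, where Atf4 did too (0.28, adjusted p = 0.0681), Atf3 passed (0.0342) and 3 of 10 rose (7.72% of all genes rose and 6.39% fell). On reads thinned to the nuclear depth of the shallowest ES50 library, only Ppp1r15a rose. Over all 12187 genes tested after thinning 245 rose and 73 fell, against 758 and 263 of 11917 before it.

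Whether PE changed the response to 10 pulses was tested as the interaction. It was above 0 for 2 of 10 genes, where 0.562% of all tested genes were and 0.344% were below 0; on total reads it was for 3, Atf3 added, where 0.789% of all genes were above 0 and 1.43% below. Ppp1r15a had an interaction of 0.71 ± 0.14 (adjusted p = 0.0176) and Chac1 of 0.63 ± 0.12 (0.018). Atf4 (0.33 ± 0.09, 0.146) and Atf3 (0.55 ± 0.24, 0.545) did not pass. In ES10 and P-ES10 Chac1 reached about the same level, 23.7 to 25.6 FPKM in ES10 and 22.4 to 24.8 in P-ES10, while P was below NC. Both calls were narrow: Ppp1r15a lost its call without NC replicate 1, ES10 replicate 1 or 3, P replicate 1 or P-ES10 replicate 1 (adjusted p of 0.0532 to 0.0591), and Chac1 without NC replicate 2 or 3, ES10 replicate 1 or 3, P replicate 1 or P-ES10 replicate 2 or 3 (0.0518 to 0.0639). Without the 3 ES50 libraries in the fit 5 of 10 were above 0, among them Atf4, Atf3 and Ddit3. Of all 11917 tested genes 275 were above 0 and 286 below in that fit, against 67 and 41 with ES50 in it.

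PE alone went with lower levels of these genes. In P against NC, 8 of 10 fell and 0 rose, where 4.81% of all tested genes fell and 4.72% rose, and the median of the 10 was -0.41 against 0.00 for all genes. The 3 P libraries lay below the 3 NC libraries for all 10 genes, where the groups did not overlap for 42.7% of all genes in either direction. Trib3 fell by 0.82 ± 0.08 (adjusted p = 1.79e-05) and Chac1 by 0.69 ± 0.09 (1.46e-04). Ppp1r15a fell by 0.44 ± 0.10 (0.00883), Atf4 by 0.40 ± 0.06 (8.64e-04), Psat1 by 0.38 ± 0.04 (4.67e-05) and Asns by 0.37 ± 0.10 (0.0366). The transporter chains fell least, Slc7a5 by 0.23 ± 0.05 (0.013) and Slc3a2 by 0.18 ± 0.04 (0.0119). Ddit3 was at -0.47 ± 0.18 (0.114) and Atf3 at -0.41 ± 0.17 (0.151), and both passed without the 3 ES50 libraries in the fit, where all 10 fell. Of all 11917 tested genes 1559 fell and 1641 rose in that fit, against 573 and 563 with ES50 in it. On total reads 7 fell (4.68% of all genes fell and 20.4% rose), Atf3 among them at -0.34 (0.0138), and Slc7a5 (-0.12, 0.184) and Slc3a2 (-0.07, 0.388) lost the call, as each did without 3 of the 6 libraries: Slc3a2 without NC replicate 1, P replicate 2 or P replicate 3 (adjusted p of 0.0503 to 0.0585), Slc7a5 without NC replicate 1, NC replicate 2 or P replicate 3 (0.0508 to 0.0665). Asns lost it without any of the 6 (0.069 to 0.126). These P libraries are also the baseline of P-ES10 and P-ES50 above and below, so the comparisons are not independent.

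After 50 pulses without PE both transporter chains were the most reduced of the 10. In ES50 against NC, 8 of 10 fell and 0 rose, where 40.1% of all tested genes fell and 31.9% rose, and the median of the 10 was -0.74 against -0.13 for all genes. ES50 and NC did not overlap for 7 of the 10, as for 67.8% of all genes. Slc7a5 fell by 2.51 ± 0.05 (adjusted p = 3.05e-15) and Slc3a2 by 1.82 ± 0.04 (7.09e-15). Atf3 fell by 1.19 ± 0.17 (1.22e-05), Ppp1r15a by 0.80 ± 0.10 (2.03e-06), Trib3 by 0.77 ± 0.08 (4.92e-07), Psat1 by 0.71 ± 0.04 (3.63e-10) and Atf4 by 0.62 ± 0.06 (3.19e-07). Chac1 fell by 0.25 ± 0.09 (0.0162), but its libraries overlapped with NC, and without NC replicate 3, ES50 replicate 1 or ES50 replicate 2 its adjusted p was 0.0646 to 0.078. Ddit3 was at -0.40 ± 0.18 (0.0538), and passed without ES50 replicate 2, its highest library, at -0.66 (3.49e-04). Asns was at -0.07 ± 0.10 (0.581), and passed without ES50 replicate 1, its highest library, at -0.21 (0.0242). On total reads all 10 fell, with fold changes of -2.98 (Atf3) to -5.55 (Slc7a5), beside a median of -2.43 for all genes, of which 96.3% fell and 0.285% rose. The added 1 holds back the falls of low genes such as Atf3. The order of the 10 on this scale and their distance from that median therefore depend partly on level.

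The number of pulses separated the same genes when ES50 was set against ES10. Here 8 of 10 fell and 0 rose, where 41.3% of all tested genes fell and 33% rose. The groups did not overlap for these 8, as for 70.2% of all genes. Slc7a5 differed by -2.45 ± 0.05, Slc3a2 by -1.93 ± 0.04, Atf3 by -1.52 ± 0.17, Ppp1r15a by -1.47 ± 0.10 and Atf4 by -0.93 ± 0.06. Asns was at 0.01 ± 0.10 (adjusted p = 0.908), and at -3.02 on total reads, where all 10 fell, as did 96.3% of all genes (0.302% rose). Ddit3 was at -0.30 ± 0.18 (0.137), and passed without ES50 replicate 2 at -0.56 (0.00124).

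With PE, 50 pulses had the opposite sign relative to the median gene. In P-ES50 against P all 10 rose on the deposited scale, where 14.1% of all tested genes rose and 14.2% fell, whereas on total reads 2 rose and 6 fell, where 0.755% of all genes rose and 87.8% fell. As deposited, P-ES50 and P did not overlap for any of the 10, as for 50.6% of all genes. The median of the 10 was 0.56 against -0.01 for all genes as deposited, and -0.31 against -0.77 on total reads. Chac1 rose by 1.21 ± 0.09 (adjusted p = 7.77e-08) and Trib3 by 1.04 ± 0.08 (2.51e-07), and both were also higher on total reads, at 0.37 and 0.18. Atf3 was at 0.70 ± 0.17 (0.00572), Ddit3 at 0.69 ± 0.18 (0.00831) and Ppp1r15a at 0.65 ± 0.10 (1.45e-04), but at -0.055, -0.19 and -0.24 on total reads. Slc3a2, Asns, Atf4, Slc7a5 and Psat1 were at 0.48 ± 0.04, 0.47 ± 0.10, 0.46 ± 0.06, 0.40 ± 0.05 and 0.39 ± 0.04, but at -0.42, -0.38, -0.44, -0.50 and -0.50 on total reads. Every one of the 10 lay above the median gene on both scales. The scales differ by 1 factor per library, so the second is no separate check of this. After thinning to the nuclear depth of the shallowest ES50 library 7 of 10 rose, and Ddit3 (0.47, adjusted p = 0.209), Asns (0.50, 0.0673) and Atf3 (0.63, 0.0509) did not pass. Over all 12187 genes tested after thinning 768 rose and 715 fell, against 1679 and 1691 of 11917 before it. The mitochondrial share of reads, 46.7 to 49.6% in P-ES50 and 5.41 to 5.60% in P, moves with this comparison, and the scale of total reads counts it.

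**Figure D2:**
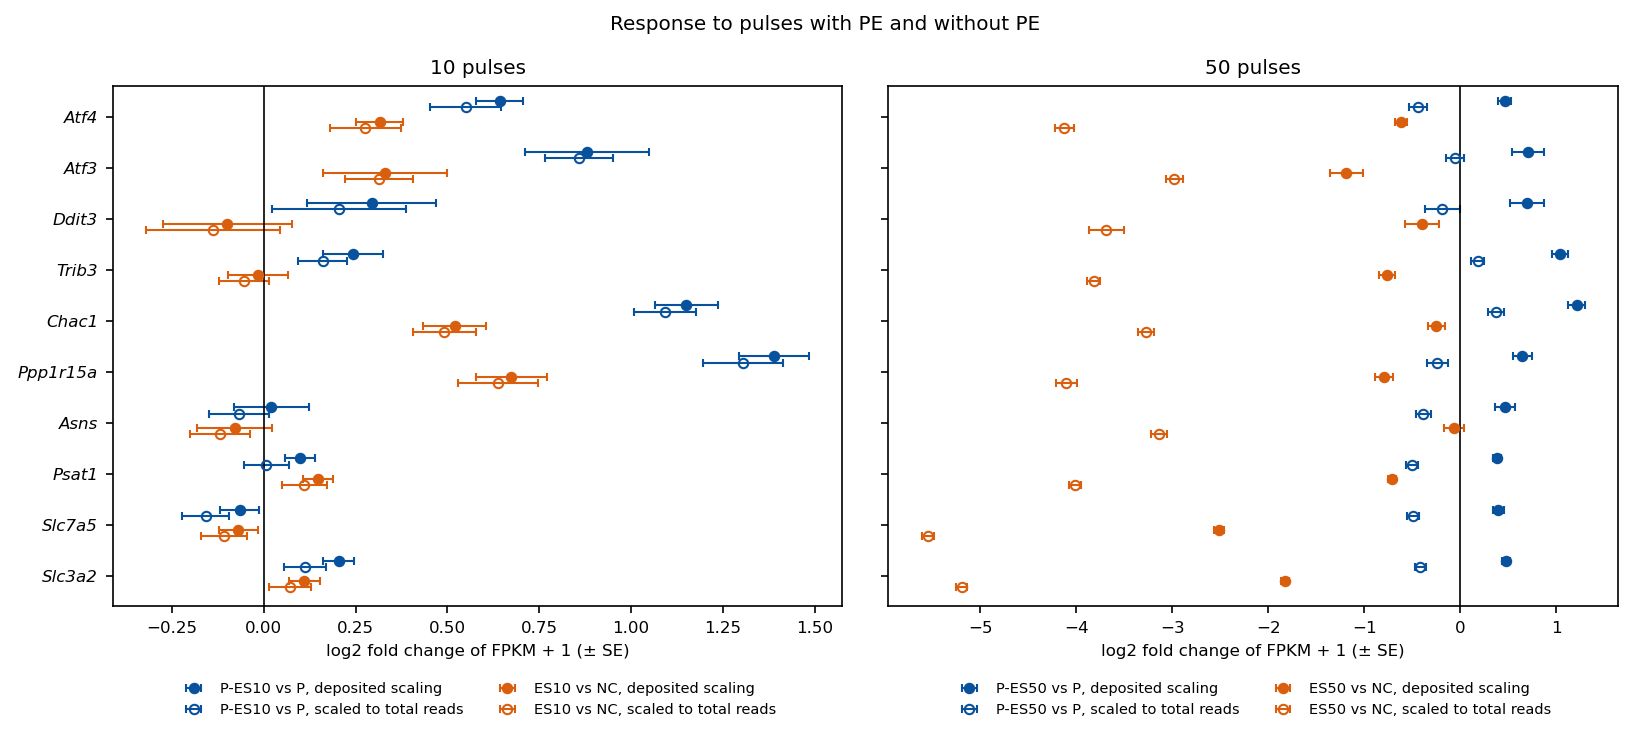
Log2 fold change of FPKM + 1 with SE (horizontal axes) of each gene after 10 pulses (left panel) and 50 pulses (right panel), with PE in blue and without PE in orange; filled points use the deposited scale and open points total reads. After 10 pulses both scales nearly coincide, while after 50 pulses with PE Slc7a5 is at 0.40 as deposited and at -0.50 on total reads.

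Against P-ES10, which differs in the number of pulses, the genes of P-ES50 moved both ways on the deposited scale. There 5 rose and 2 fell, where 10.5% and 12.9% of all tested genes did; on total reads 0 rose and 8 fell (0.462% and 86.8% of all genes). As deposited, the groups did not overlap for 9 of the 10, as for 48% of all genes. Trib3 rose by 0.79 ± 0.08 (adjusted p = 4.70e-06, 0.02 on total reads). Slc7a5, Asns, Psat1 and Slc3a2 rose by 0.46 ± 0.05, 0.45 ± 0.10, 0.29 ± 0.04 and 0.27 ± 0.04, but were at -0.34, -0.32, -0.51 and -0.53 on total reads. Ppp1r15a fell by 0.74 ± 0.10 (4.53e-05), and on total reads by 1.55. After thinning, Asns lost the call (0.49, 0.0805). Atf4 fell by 0.18 ± 0.06 (0.0482), a call lost without any of the 6 libraries (0.0578 to 0.159), and was at -0.99 on total reads. Chac1 was at 0.06 ± 0.09 (0.689), and at -0.72 on total reads. Ddit3 was at 0.40 ± 0.18 (0.123), passed without the 3 ES50 libraries in the fit (1.37e-04), and was at -0.39 on total reads. Atf3 was at -0.18 ± 0.17 (0.5), and at -0.91 on total reads.

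The interaction of PE with 50 pulses was above 0 for all 10 genes, where 31.1% of all tested genes were above 0 and 27.9% below, and also on total reads, where 88.7% were above 0 and 0.159% below. Slc7a5 had the largest, 2.91 ± 0.08 (adjusted p = 1.40e-13), followed by Slc3a2 at 2.30 ± 0.06 (1.30e-13). Atf3 was at 1.89 ± 0.24, Trib3 at 1.80 ± 0.12, Chac1 at 1.46 ± 0.12 and Ppp1r15a at 1.44 ± 0.14. Psat1, Ddit3 and Atf4 were at 1.10 ± 0.06, 1.09 ± 0.25 and 1.08 ± 0.09, and Asns was lowest at 0.53 ± 0.15 (0.0054). The median of the 10 was 1.45 against 0.05 for all genes. After thinning to the nuclear depth of the shallowest ES50 library 8 of 10 were called, and Ddit3 (0.73, adjusted p = 0.0867) and Asns (0.45, 0.155) were not. Over all 12187 genes tested after thinning 2601 were above 0 and 2258 below, against 3706 and 3330 of 11917 before it.

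Ratios of FPKM within a library do not depend on how libraries are scaled to each other, and show which genes changed unequally. They are given as descriptions, since 3 libraries against 3 cannot go below an exact permutation p of 0.1. The log2 ratio of Ppp1r15a to Atf4 was -1.77 ± 0.02 in P-ES10 and -2.34 ± 0.09 in P-ES50, against -2.54 ± 0.09 in P, and -2.12 ± 0.03 in ES10 against -2.49 ± 0.02 in NC (SD, n = 3 each). That of Trib3 to Atf4 went the other way between the pulse numbers, at -4.58 ± 0.05 in P-ES10 and -3.57 ± 0.05 in P-ES50, against -4.19 ± 0.20 in P. Asns to Atf4 was -4.94 ± 0.02 in P-ES10 and -4.28 ± 0.14 in P-ES50, against -4.32 ± 0.12 in P. Thus after 10 pulses with PE Trib3 and Asns lagged Atf4 while Ppp1r15a ran ahead of it. Slc7a5, Psat1, Slc3a2 and Ddit3 lagged too, with ratios to Atf4 that differed between P-ES10 and P by -0.71, -0.54, -0.44 and -0.34. Chac1 also ran ahead, at 0.58, and Atf3 was at 0.40 with overlap. Slc7a5 to Atf4 was -4.05 ± 0.08 in ES50 against -2.07 ± 0.05 in NC, and the 2 chains of the transporter also parted, with Slc7a5 to Slc3a2 at -1.77 ± 0.10 in ES50 against -1.02 ± 0.06 in NC. In P-ES50 that ratio was -1.15 ± 0.04, against -1.07 ± 0.04 in P. Slc7a5 to Slc3a2 was also lower after 10 pulses, at -1.34 ± 0.00 in P-ES10 against -1.07 ± 0.04 in P, and -1.20 ± 0.03 in ES10 against -1.02 ± 0.06 in NC, without overlap in either case.

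**Figure D3:**
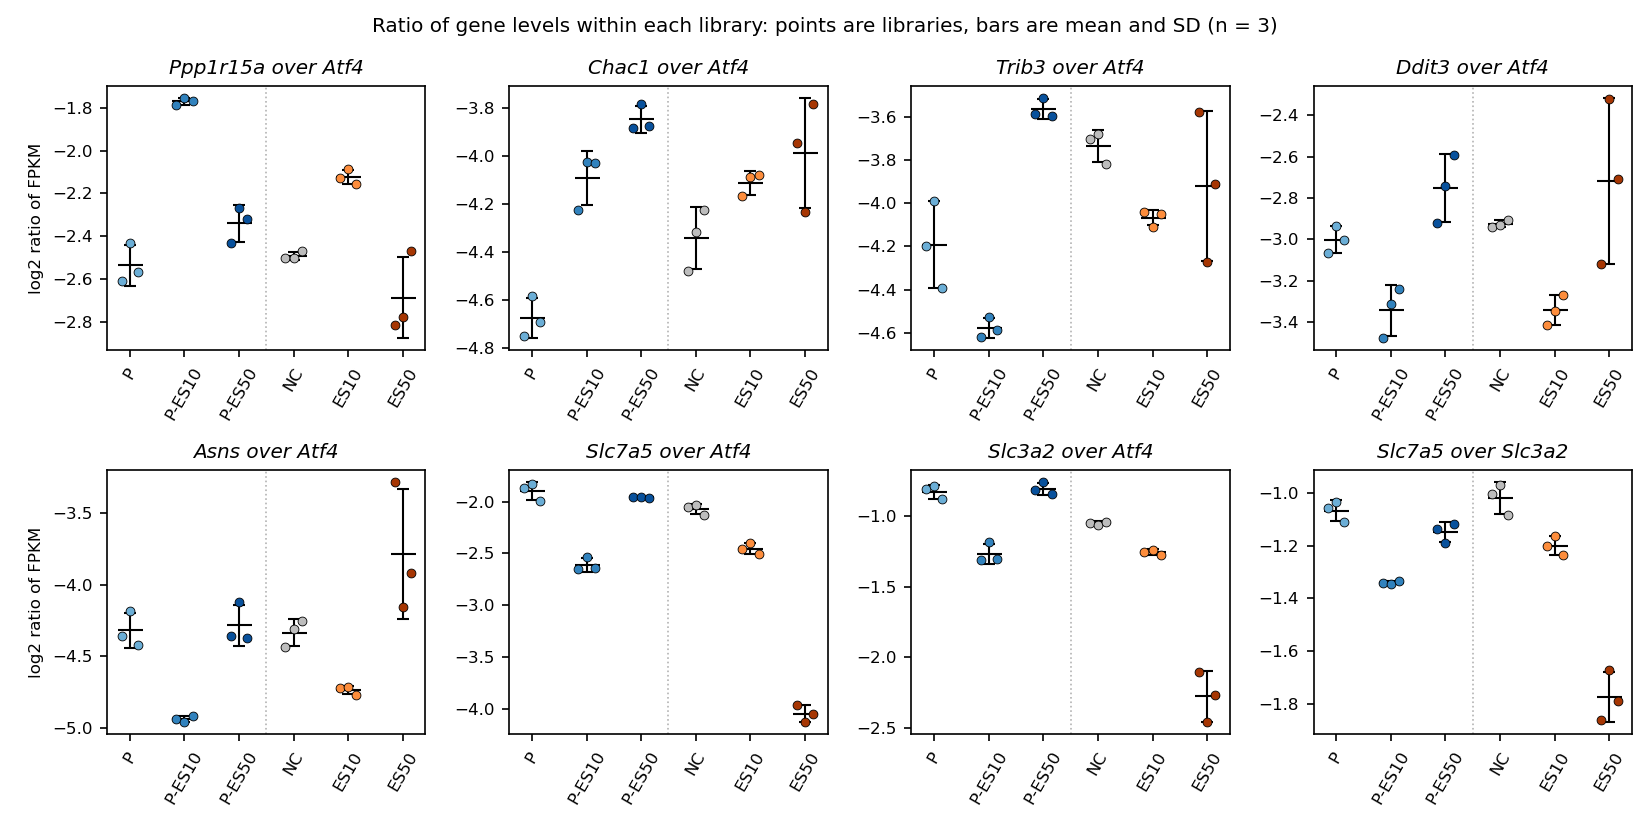
Log2 ratio of the FPKM of 2 genes within each library (vertical axes) in the 6 groups, PE-treated groups left of the dotted line; points are libraries, bars the mean and SD (n = 3). Ppp1r15a over Atf4 is highest in P-ES10 (-1.77), Trib3 over Atf4 lowest there (-4.58), and Slc7a5 over Atf4 lowest in ES50 (-4.05).

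Other genes of the pathway were counted from 6 lists by role, of which 70 genes were found and 65 tested. In P-ES50 against P 31 rose and 3 fell on the deposited scale, where 14.1% of all tested genes rose and 14.2% fell, and 3 rose and 57 fell on total reads, where 0.755% rose and 87.8% fell. In ES50 against NC 14 rose and 44 fell, where 31.9% of all genes rose and 40.1% fell, and 0 rose and 64 fell on total reads, where 96.3% of all genes fell. In P-ES10 against P 24 rose and 11 fell (13.2% and 9.66% of all genes), in ES10 against NC 6 and 3 (6.36% and 2.21%), and in P against NC 1 and 23 (4.72% and 4.81%). The interaction with 10 pulses passed for 0 of the 65 in limma's model as deposited and for 1 on total reads. That with 50 pulses was above 0 for 44 and below 0 for 9 (31.1% and 27.9% of all genes) as deposited. On total reads it was above 0 for 64 and below 0 for 0 (88.7% and 0.159% of all genes). These lists were drawn up with earlier results of these data known.

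Among the kinases, subunits and phosphatase partners of eIF2, 4 of 14 rose and 3 fell in P-ES10 against P, beside 13.2% and 9.66% of all genes, and 9 rose and 3 fell in ES50 against NC, beside 31.9% and 40.1% of all genes (0 and 14 on total reads, where 96.3% of all genes fell). Eif2ak3, the gene of the ER stress kinase PERK, averaged 10.8 ± 0.234 FPKM in P-ES10 against 7.13 ± 0.138 in P (log2 fold change 0.54 ± 0.17, adjusted p = 0.0326), and 1.47 ± 0.787 in ES50 against 9.48 ± 0.0437 in NC (-2.14 ± 0.17, 1.51e-08). Ppp1r15b, the constitutive counterpart of Ppp1r15a, rose by 0.66 ± 0.13 in P-ES10 against P and fell by 1.85 ± 0.13 in ES50 against NC. Eif2ak1, the gene of the heme-regulated kinase HRI, was at 0.92 ± 0.07 in ES50 against NC, but at -2.34 on total reads. Eif2ak4, the gene of the amino acid sensor GCN2, fell by 0.58 ± 0.09 in P-ES50 against P.

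Of the factors that act with ATF4, 5 of 5 tested rose in P-ES50 against P, beside 14.1% of all genes, although on total reads 0 rose and 4 fell, beside 87.8% of all genes falling. Cebpb averaged 123 ± 7.46 FPKM in P-ES50 against 57.5 ± 7.65 in P (1.09 ± 0.16, and 0.20 on total reads), and Cebpg rose by 0.72 ± 0.06 (-0.13 on total reads). Atf5, a close relative of Atf4, stood apart after 50 pulses without PE: it averaged 617 ± 17.2 FPKM in ES50 against 135 ± 3.85 in NC (2.19 ± 0.03, but -1.34 on total reads), while Atf4 fell there.

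Of the other amino acid transporters 9 of 9 fell in ES50 against NC, beside 40.1% of all genes, with a median of -2.08 and a range of -2.69 to -0.45, led by Slc1a5 at -2.69 ± 0.13 and Slc7a1 at -2.66 ± 0.07. In P-ES50 against P, 4 rose and 1 fell, beside 14.1% and 14.2% of all genes, and on total reads 2 and 7, beside 0.755% and 87.8%. Slc7a11, the cystine carrier, was at 10.2, 10.3 and 10.3 FPKM in P-ES50 against 1.58, 1.69 and 1.48 in P (2.13 ± 0.10, adjusted p = 3.10e-10), and was also higher on total reads, at 1.499. Of the genes of amino acid synthesis 2 of 12 rose and 6 fell in ES50 against NC, beside 31.9% and 40.1% of all genes (0 and 11 on total reads, where 96.3% of all genes fell), so these shares lie near those of all genes. Mthfd2, of mitochondrial one-carbon metabolism, averaged 53.8 ± 0.973 FPKM in P-ES50 against 30.5 ± 0.238 in P (0.80 ± 0.08, -0.08 on total reads), while Phgdh, the entry enzyme of serine synthesis, fell by 0.50 ± 0.09 in P-ES10 against P. Of 13 genes of tRNA charging and export, 8 rose and 0 fell in P-ES50 against P, beside 14.1% and 14.2% of all genes (0 and 13 on total reads, where 87.8% of all genes fell), and 0 rose and 12 fell in ES50 against NC, beside 31.9% and 40.1%.

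Among stress effectors 7 of 12 rose and 0 fell in P-ES50 against P, beside 14.1% and 14.2% of all genes (1 and 10 on total reads, beside 0.755% and 87.8%), and 1 rose and 11 fell in ES50 against NC, beside 31.9% and 40.1%. Gdf15, a secreted stress hormone, was at 8.93, 11.2 and 9.35 FPKM in P-ES50 against 0.559, 1.03 and 0.923 in P (2.56 ± 0.18, adjusted p = 8.18e-08, and 2.07 on total reads). Sesn2, a restraint on growth signalling, rose by 0.73 ± 0.11 there but was at -0.12 on total reads. Atf6, an ER stress sensor, averaged 46.2 ± 0.707 FPKM in P-ES10 against 27.5 ± 0.627 in P (0.73 ± 0.11) and 5.10 ± 1.45 in ES50 against 34.1 ± 0.461 in NC (-2.55 ± 0.11).

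**Figure D4:**
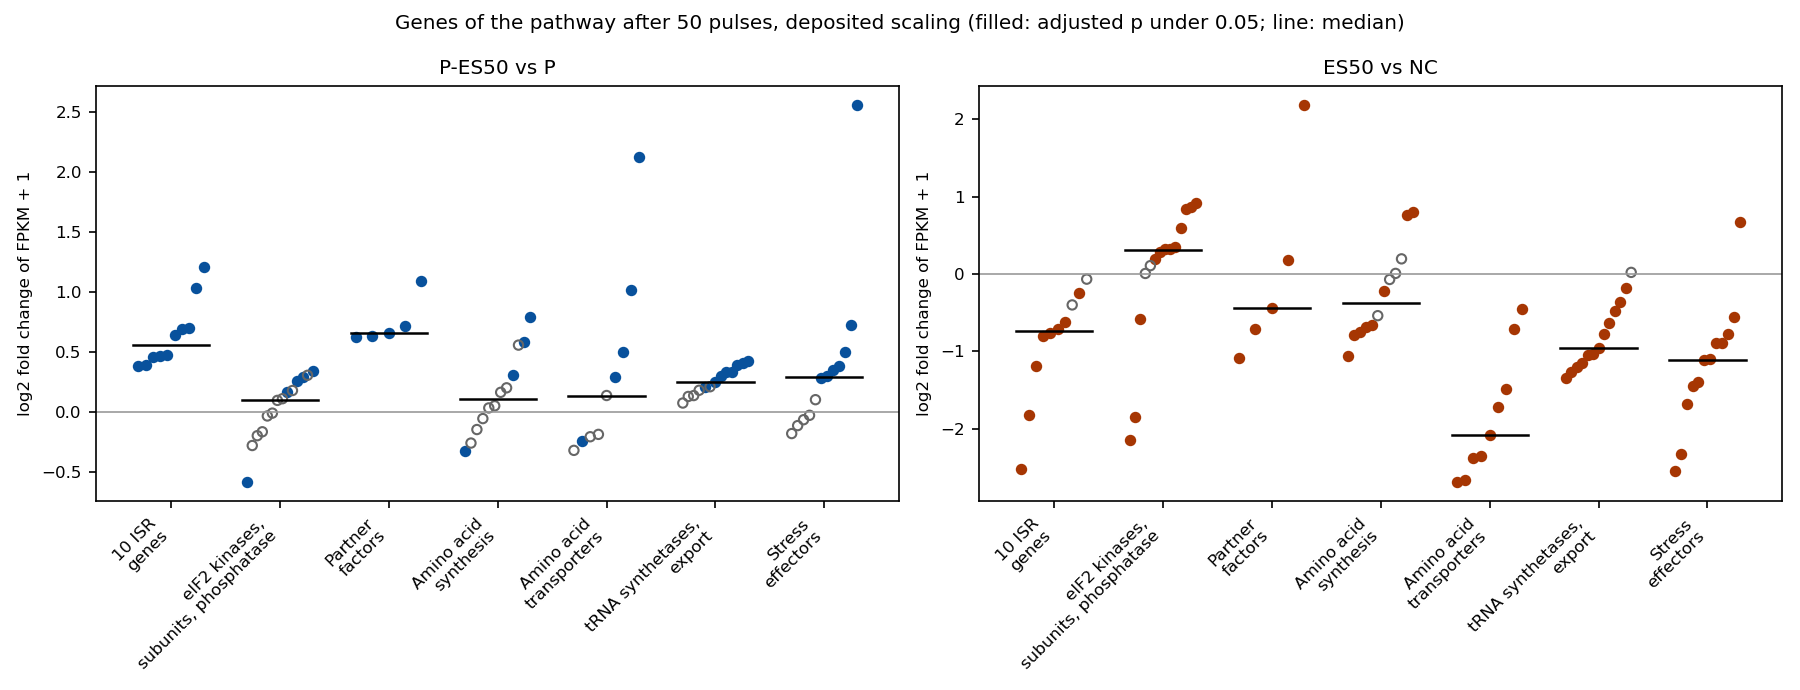
Log2 fold change of FPKM + 1 on the deposited scale (vertical axes) for the 10 genes and 6 lists of other pathway genes in P-ES50 against P (left) and ES50 against NC (right); filled points passed an adjusted p of 0.05, lines are medians. The median of the 10 genes is 0.56 on the left and -0.74 on the right, and that of the other amino acid transporters is -2.08 on the right.

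Over the 18 libraries the genes whose log2 levels were most like Atf4 were Pdp1 (Pearson r = 0.98), Uck2 (0.97), Eaf1 (0.96), Ubap2l (0.96) and Herpud1 (0.96). Those most like Slc7a5 were Atp7a (1.00), Plin2 (0.99), Socs5 (0.99), Tacc2 (0.99) and its partner chain Slc3a2 (0.99). Without the 3 ES50 libraries these values were 0.92 to 0.97 for the genes like Atf4 and 0.70 to 0.90 for those like Slc7a5, so the likeness to Slc7a5 leans more on ES50. Among the 45 pairs of the 10 genes, r ranged from -0.17 to 0.95 without ES50 (15 libraries), highest for Atf3 with Chac1 (0.95), Trib3 with Asns (0.93) and Atf4 with Ppp1r15a (0.92), and lowest for Ppp1r15a with Slc7a5 (-0.17). The libraries fall into groups and share their scaling, so these are descriptions.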

How the data were processed

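RNA was captured on poly-T beads and sequenced in 18 libraries of 6 groups, per the labels' protocols. The authors deposited FPKM per gene, with gene lengths and positions on build Rnor 6.0, per the submitters' processing notes. The aligner, counting tool or strand setting is not given in the sources used here. In each library FPKM times length was a whole multiple of a common step for 100% of genes (tolerance 0.01), which gave back the reads, 14004929 to 17247201 a library, and showed that the deposited scale follows the median gene rather than total reads.

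Genes with at least 1 FPKM in at least 3 libraries (11917) were fitted as log2(FPKM + 1) with limma 3.58.1 in R 4.3.3, in a model of 6 group means over all 18 libraries, with a variance trend. This scale understates changes of low genes. P-values were adjusted over all genes within each of 9 contrasts, 7 of them between groups and 2 interactions (the response to pulses with PE minus that without), and the step was tested on simulated data. FPKM are given as mean ± SD (n = 3) and changes ± SE. Numbered replicates were not treated as pairs. Python 3.11.15 and pandas 2.3.3 served for tables and figures.

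All 10 genes were tested in each contrast, but values are not printed for every gene in every contrast. From the other lists up to 2 called genes with the largest change in each direction were eligible for naming. Likeness used the 5 highest Pearson correlations with Atf4 and Slc7a5. The genes, lists and tests were chosen with earlier results of these data known. Alternatives covered the pseudocount, the filter, scaling to total or nuclear reads, quantile normalization, the libraries in the fit, thinning to 1230554 nuclear reads, a replicate block and each replicate left out. Voom on recovered reads and a fit that leaves out ES50 were chosen after seeing the data.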

Additional observations from a re-analysis of the deposited data

Results flagged for a closer look

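A different response to pulses with PE and without PE, by the interaction term in limma's model, was called for 2 genes after 10 pulses and for all 10 after 50, or for 1 and 8 after thinning to 1 nuclear depth, where Chac1 was lost after 10 pulses and Ddit3 and Asns after 50. Over all 11917 tested genes it was called for 108 after 10 pulses and 7036 after 50. After thinning it was called for 47 and 4859 of 12187. After 10 pulses the log2 differences were 0.71 for Ppp1r15a and 0.63 for Chac1. After 50 pulses they were 2.91 for Slc7a5, 2.30 for Slc3a2, 1.89 for Atf3, 1.80 for Trib3, 1.46 for Chac1, 1.44 for Ppp1r15a, 1.10 for Psat1, 1.09 for Ddit3, 1.08 for Atf4 and 0.53 for Asns. The mitochondrial share of reads differs between the groups that enter the 50-pulse values, at 46.7 to 49.6% in P-ES50, 5.41 to 5.60% in P, 91.4 to 92.9% in ES50 and 11.6 to 14.0% in NC, and its part in them was not tested.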

How the results depend on the processing

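The 90 fold changes (10 genes in 9 contrasts) were recomputed to 1530 values, of which 1373 kept direction and side of the threshold, 79 lost the call, 43 gained it and 35 changed sign. Of these 35, 14 were called in the main or the alternative fit, all 14 on total reads, and 21 were called in neither. On total reads the calls were 8 in P-ES50 against P (2 higher, 6 lower) and 8 in P-ES50 against P-ES10 (0 higher, 8 lower), with main counts of 10 and 7. In P-ES50 against P the fold changes were -0.44 for Atf4, -0.42 for Slc3a2, -0.24 for Ppp1r15a, -0.50 for Slc7a5, -0.50 for Psat1, -0.19 for Ddit3, -0.38 for Asns and -0.055 for Atf3. In P-ES50 against P-ES10 they were -0.53 for Slc3a2, -0.34 for Slc7a5, -0.51 for Psat1, -0.72 for Chac1 and -0.32 for Asns, and Asns was at -3.02 in ES50 against ES10. The 21 uncalled sign changes were, on total reads, Asns in P-ES10 against P (-0.068), Ddit3 in P-ES50 against P-ES10 (-0.39) and the interaction of Slc7a5 with 10 pulses (-0.05); on nuclear reads Asns in P-ES10 against P (-0.054); with quantile normalization Slc3a2 in ES10 against NC (-0.0079); after thinning Trib3 (0.035) and Asns (0.030) in ES10 against NC, Asns in ES50 against NC (0.054) and the interaction of Asns with 10 pulses (-0.021); and 12 with a replicate left out, over ranges of -0.058 to 0.013 for Trib3 in ES10 against NC, -0.21 to 0.042 for Asns in ES50 against NC, -0.13 to 0.12 for Asns in ES50 against ES10, -0.014 to 0.056 for Asns in P-ES10 against P and -0.034 to 0.044 for the interaction of Slc7a5 with 10 pulses. By construction the scale of total reads counts the mitochondrial reads of the 50-pulse libraries. The interaction with 10 pulses, called for 2 genes, was called for 5 with only the groups compared, 5 with voom, 5 without ES50 and 1 after thinning, which also left 1 of 4 calls in ES10 against NC. Over all genes this interaction had 108 calls in the main fit. It had 693 with only the groups compared, 788 with voom, 561 without ES50 and 47 after thinning, so the counts of the 10 moved with those of all genes. Thinning left 7 calls in P-ES50 against P and 8 for the interaction with 50 pulses, and also ended those of Chac1 in ES50 against NC (0.0659), Slc7a5 (0.0817) and Asns (0.379) in P against NC, Trib3 in P-ES10 against P (0.0596), and Atf4 (0.105) and Asns (0.0805) in P-ES50 against P-ES10 (adjusted p). By construction it has fewer reads; for the other settings the cause was not tested. With each replicate left out, the calls ranged from 0 to 2 for the interaction with 10 pulses, from 5 to 7 in P against NC, from 3 to 3 in ES10 against NC, from 7 to 8 in ES50 against NC, from 8 to 9 in ES50 against ES10, from 5 to 6 in P-ES10 against P, from 6 to 6 in P-ES50 against P-ES10 and stayed at 10 in the other 2. Same-numbered libraries correlated at -0.088 to 0.101 in their deviations, so the numbers were not read as pairs. With the replicate block, 86 of 90 results kept their side, Ddit3 in ES50 against NC passed (adjusted p = 0.0406), and Psat1 in ES10 against NC (0.0583), Asns in P against NC (0.0507) and Atf4 in P-ES50 against P-ES10 (0.0718) did not; the counts were within 1.5 times. Over all genes, ES10 against NC had 1021 calls, against 318 after thinning and 2834 with voom. P-ES50 against P had 3370, against 1483 after thinning, and the interaction with 50 pulses had 7036, against 4859 after thinning. The 2 planned count models were not run, since the deposited unit is FPKM. In ES50, 8 to 22 reads limit Atf3.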

Other observations

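The rank of a gene by FPKM among the 11917 tested genes does not depend on library scaling. Atf4 ranked 90 to 97 in ES10 and 256 to 325 in ES50, against 115 to 122 in NC. Slc7a5 ranked 3453 to 3732 in ES50 against 547 to 586 in NC, and 524 to 568 in P-ES50 against 650 to 728 in P. Slc3a2 ranked 1215 to 1301 in ES50 against 247 to 250 in NC. Chac1 ranked 2105 to 2331 in P-ES10 and 2039 to 2202 in P-ES50, against 4476 to 4621 in P. Trib3 ranked 2980 to 3006 in P-ES10 and 1673 to 1799 in P-ES50, against 3186 to 3862 in P.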
